A study of Mus musculus with 40 samples.

Results

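Removal of the testes was compared with a sham operation in ribosome-bound messages of hypothalamic astrocytes from mice on a high-fat diet (HFD). The comparison took every pull-down library labelled as orchiectomised on HFD, 7 in number, and every pull-down library labelled as sham-operated on HFD, 6 in number. These 13 libraries are part of a series of 40. All mice, sham animals included, carried the Aldh1l1-eGFP-L10a transgene, in which regulatory sequence of the astrocyte gene Aldh1l1 directs a fluorescently tagged ribosomal protein, L10a. Orchiectomised mice (labelled GDX or ORX) and their sham controls ate HFD for 4 weeks, and a further group of 7 sham pull-downs came from mice on chow. Hypothalami were dissected, and translating ribosome affinity purification (TRAP) split each sample into a pull-down of tagged ribosomes and the supernatant left behind. The labels give neither the age at surgery, nor the time from surgery to collection, nor hormone levels. No orchiectomised mice on chow were analysed here, so the operation is described on HFD only.

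Testosterone from the testes acts in the brain as such and, after conversion to oestradiol by aromatase, through oestrogen receptors. In the hypothalamus, arcuate neurons that make neurokinin B sense these hormones and pass negative feedback on to the cells that release gonadotropin-releasing hormone, and loss of the testes lifts that restraint. Astrocytes surround these neurons, take up their transmitters, break down fatty acids, can make ketone bodies, and contact blood vessels with their endfeet.

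Total counts were 7714834 to 14303157 in orchiectomised and 10227881 to 20792175 in sham pull-downs on HFD. Gm42418, an RNA gene that overlaps ribosomal RNA, took 2.40% to 17.0% of the counts in orchiectomised and 1.60% to 18.2% in sham pull-downs. It passed 10% in orchiectomised samples 11 and 22, in sham sample 1 and in 1 chow pull-down, which are called Gm42418-rich here. Mean totals, Gm42418 shares, mitochondrial shares and numbers of detected genes were compared by 4 two-sided exact permutation tests, and none passed (lowest p = 0.432, lowest adjusted p = 0.637). Orchiectomised sample 22 and sham sample 1 stood apart from the rest: over 10210 genes, their Pearson correlations with the mean of the other libraries of their group were 0.951 and 0.955, against 0.977 to 0.994 for the other 11. Values without sham sample 1, without orchiectomised sample 22 or without the Gm42418-rich libraries are given beside many of the results that they moved.

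The label held against astrocyte markers. In the chow mice, which lie outside the comparison, 22 astrocyte markers had a median log2 enrichment of 4.74 in the pull-down over the supernatant, and 20 neuron markers had a median of −3.74. Their sums overlapped between the operations. Astrocyte markers summed to 46860 to 62810 CPM (counts scaled to a common library size with TMM factors) in orchiectomised and to 56810 to 68300 CPM in sham pull-downs. Neuron markers summed to 842 to 2060 CPM in orchiectomised and to 879 to 1507 CPM in sham pull-downs, with orchiectomised sample 22 and sham sample 1 as the highest. No marker of the lists for neurons, endothelium or blood was at 0 in all 13 libraries, so messages of other cells were present in the pull-downs.

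**Figure D1:**
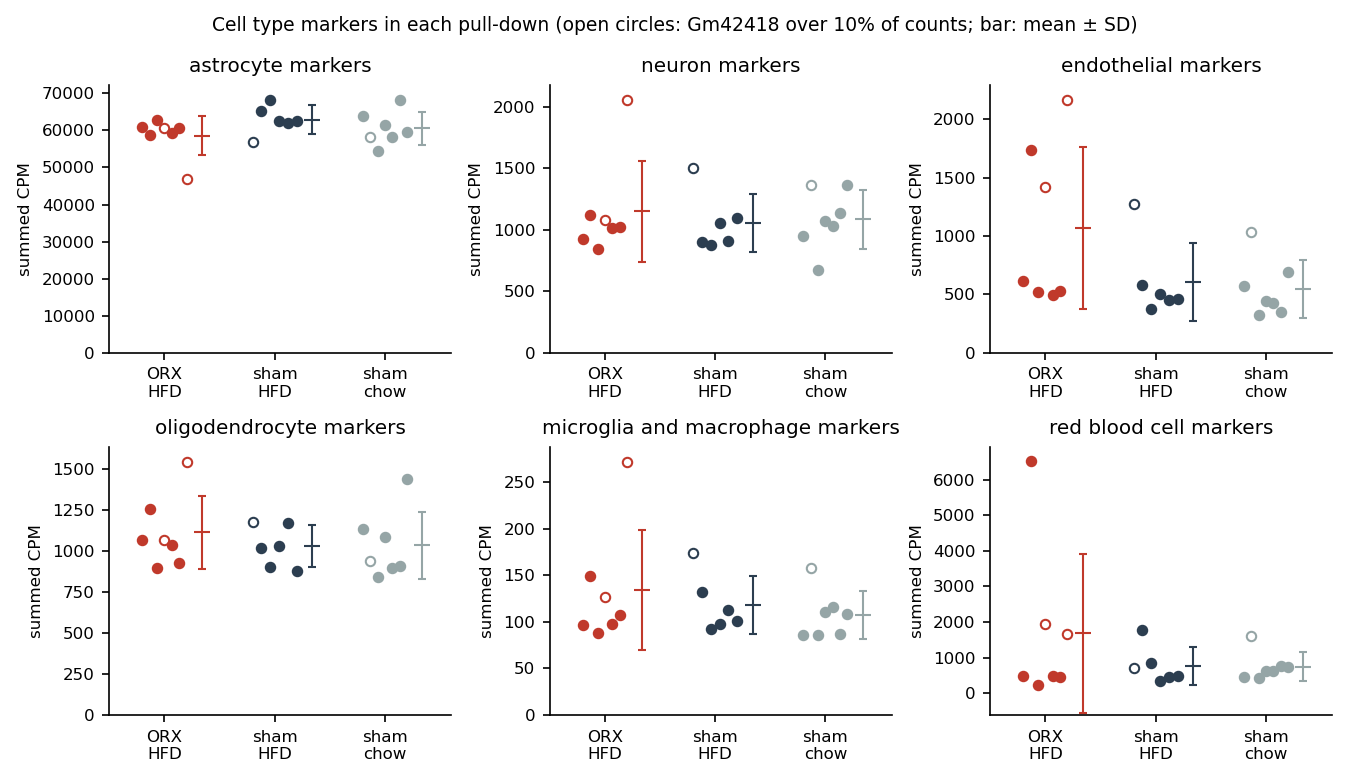
Summed CPM of 6 lists of cell type markers in each pull-down; each point is a library, open circles are the Gm42418-rich libraries, and bars give mean ± SD per group. Astrocyte markers overlap between orchiectomised and sham mice, and the endothelial sum reaches 2166 CPM in orchiectomised sample 22 and 1270 CPM in sham sample 1.

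The gene with the smallest p was Tac2, which encodes the precursor of neurokinin B (chr10:127724478-127731768 on GRCm38, plus strand, protein-coding). Orchiectomised pull-downs had 1.47 CPM at the lowest, 9.46 at the median and 11.7 at the highest. Sham pull-downs had 0.521, 0.927 and 2.56 CPM. Of the orchiectomised libraries, 5 lay above every sham library; samples 6 and 10, at 1.47 and 2.43 CPM, lay within the sham range, whose top was sham sample 1. The log2 fold change of orchiectomised over sham was 2.65 ± 0.44 (SE), with an edgeR adjusted p of 0.0579, just outside the threshold of 0.05. Without the Gm42418-rich libraries it was 2.89 ± 0.46 (edgeR adjusted p = 0.0287), and without sham sample 1 it was called as well (edgeR adjusted p = 0.0135). It was not called without orchiectomised sample 22 (edgeR adjusted p = 0.0743). Nor was it called without orchiectomised sample 2, 11, 14 or 17, where the lowest edgeR adjusted p of any gene was 0.121 to 0.187. Of 24 settings, the main fit, the alternatives and the fits leaving out 1 library, 6 called Tac2. Its log2 fold change was at least 1.73 in all 24.

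Tac2 is a message of neurons, and it was depleted in the pull-down: in chow mice its log2 ratio of pull-down to supernatant was −5.15. In the supernatants, where its level was higher, orchiectomised libraries averaged 32.2 ± 14.9 CPM (SD, n = 7 libraries) and sham libraries 37.0 ± 8.34 CPM (SD, n = 6 libraries), a log2 fold change of −0.20 ± 0.28. The interaction, which asks whether the effect of orchiectomy differed between the fractions, was 2.84 ± 0.48 on the log2 scale for Tac2, with an edgeR adjusted p of 0.00978. It was the 1 gene called of 15629 tested (0.00640%). That call did not hold with the sample number as a block (2.76 ± 0.49, edgeR adjusted p = 0.176; 0 genes called, and 475 at an unadjusted p under 0.05), nor without the samples whose pull-down was Gm42418-rich (0 called). In such bulk libraries, more cells of a type, more RNA per cell and more carry-over of free RNA cannot be told apart.

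Esr1, the oestrogen receptor alpha gene (chr10:4611593-5005614, plus strand), came next among the higher genes. Its lowest, median and highest levels were 2.31, 2.79 and 4.72 CPM in orchiectomised pull-downs, against 0.762, 1.11 and 2.05 CPM in sham pull-downs. All 7 orchiectomised libraries lay above all 6 sham libraries. The log2 fold change was 1.36 ± 0.26 (edgeR adjusted p = 0.103), and 1.39 ± 0.24 without the Gm42418-rich libraries (edgeR adjusted p = 0.0415). It was called without sham sample 1 (edgeR adjusted p = 0.0147) but not without orchiectomised sample 22 (edgeR adjusted p = 0.159). Esr1 was also depleted in the pull-down of chow mice (−3.08), and in the supernatants it averaged 8.16 CPM in orchiectomised and 6.90 CPM in sham mice (0.24 ± 0.18). Its interaction was 1.11 ± 0.27 (edgeR adjusted p = 0.752), so a difference between fractions was not shown for Esr1.

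Across all 14059 genes tested, edgeR called 0 between orchiectomised and sham pull-downs (0%). At an unadjusted p under 0.05 stood 918 genes (6.53%), of which 564 were higher (4.01% of those tested) and 354 lower (2.52%). DESeq2 called 11 genes (0.0782%), 4 higher and 7 lower. Limma voom called 0, and limma voom with sample quality weights, an alternative chosen after seeing the data, called 79 (0.562%). Changes were small: the median absolute log2 fold change was 0.129, and 102 genes lay above 1 and 22 below −1. The libraries of both groups did not overlap for 20 genes (0.142%), 11 with orchiectomised mice above and 9 with them below.

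**Figure D2:**
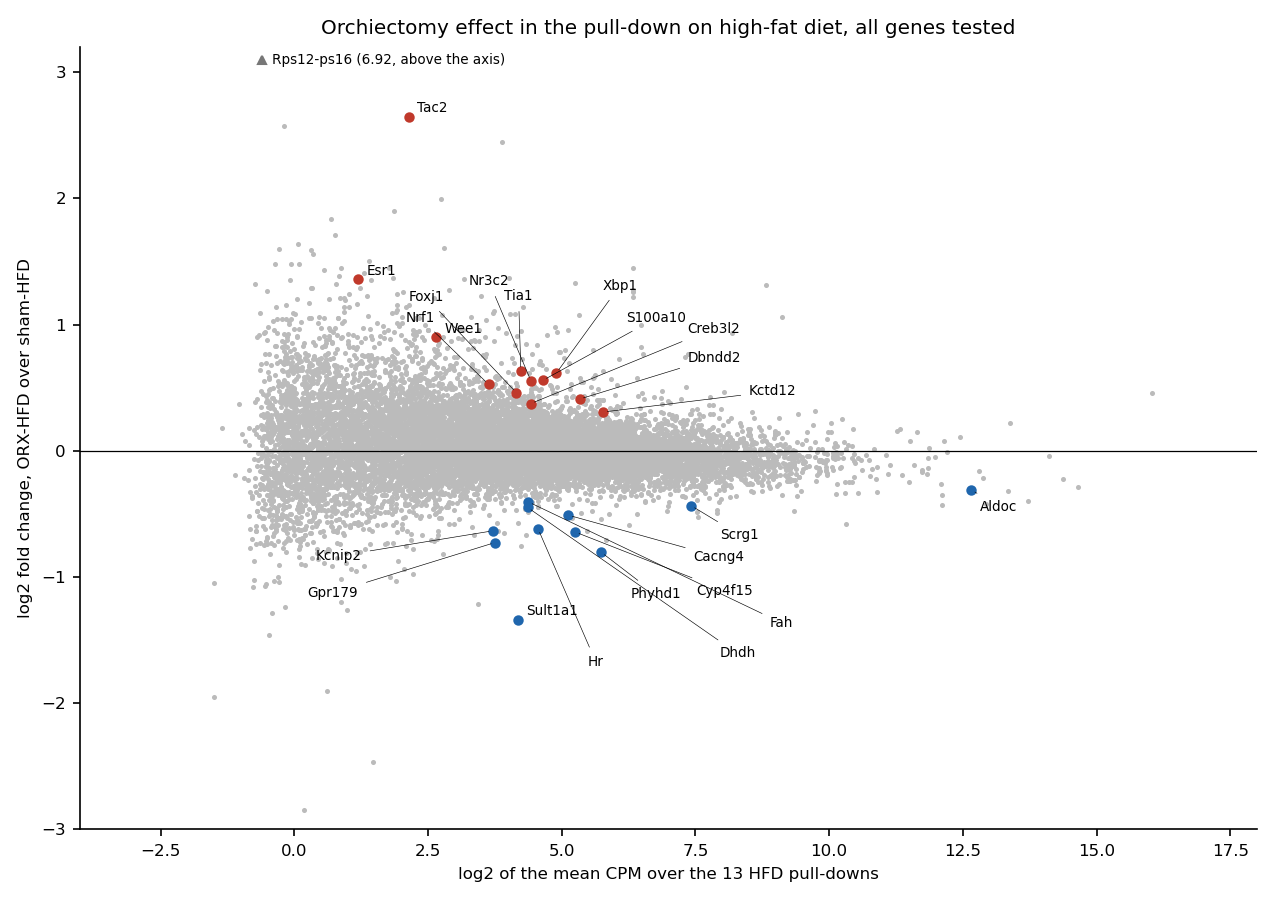
Log2 fold change of orchiectomised over sham pull-downs against the log2 of the mean CPM over the 13 HFD pull-downs; each point is a gene, with the 12 genes of smallest p that were higher in red and 11 of the 12 that were lower in blue. Tac2 at 2.65 and Esr1 at 1.36 lie at low levels, the lower genes include Sult1a1 at −1.34, and the pseudogene Rps12-ps16 (6.92) is drawn at the edge.

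The 11 genes that DESeq2 called included Tac2, Esr1, Wee1 and Nrf1 on the higher side, and Cacng4, Cyp4f15, Sult1a1, Hr, Phyhd1 and Aldoc on the lower side. All 11 are among the 12 higher and 12 lower genes of smallest edgeR p. Without the Gm42418-rich libraries edgeR called 4 of 13979 genes (0.0286%): Tac2 and Esr1 were higher, and Sult1a1 and Phyhd1 were lower. Without sham sample 1 it called 5 of 14195 (0.0352%), the same 4 and Nrf1. Without that library 2100 genes had an unadjusted p under 0.05, against 918 with it. Leaving out orchiectomised sample 22 moved the result the other way: edgeR called 0 of 13984 genes (0%; lowest adjusted p = 0.0743), and 647 had an unadjusted p under 0.05, of which 371 were higher (2.65% of those tested) and 276 lower (1.97%).

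Lower genes were mostly messages that the pull-down enriches. In the chow libraries, which do not enter the contrast, the 12 genes that were lower with the smallest p had a median log2 enrichment of 2.72 in the pull-down, and 7 of the 12 passed 2. The 12 higher genes had a median of 0.04, and 0 of 12 passed 2. Over all genes with a value the median was 0.14 and 11.1% passed 2. All 354 lower genes at an unadjusted p under 0.05 had a median of 0.75, with 29.7% above 2, while the 564 higher genes had a median of 0.31, with 8.87% above 2. These shares describe the genes and were not tested.

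Cacng4 had the smallest p among the lower genes. It encodes an auxiliary subunit of AMPA-type glutamate receptors (chr11:107732357-107794557, minus strand). Orchiectomised pull-downs held 25.9, 28.3 and 34.3 CPM at the lowest, median and highest, against 33.2, 42.0 and 47.5 CPM in sham pull-downs. The groups overlapped at 1 sham library, sample 13 with 33.2 CPM, which lay below orchiectomised sample 6 with 34.3 CPM. The log2 fold change was −0.51 ± 0.09 (edgeR adjusted p = 0.0594), and it was called without that sham library. It was not called without the Gm42418-rich libraries (edgeR adjusted p = 0.156), without sham sample 1 (edgeR adjusted p = 0.0568) or without orchiectomised sample 22 (edgeR adjusted p = 0.0869). In the supernatants, where Cacng4 is higher and also marks oligodendrocyte precursors, orchiectomised mice averaged 71.1 CPM and sham mice 72.7 CPM (−0.03 ± 0.09). The other 15 genes on the list of AMPA receptors and their subunits had an unadjusted p of 0.05 or more, with a median of −0.03 over all 16.

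Genes of fatty acid oxidation and ketone bodies lay lower. Of 30 tested, 5 were lower at an unadjusted p under 0.05 and 0 were higher, 24 of 30 had a negative log2 fold change, against 47.6% of all genes tested, and the median was −0.12, against 0.01 over all genes tested. Of all genes tested 2.52% were lower at that p. On leaving out the Gm42418-rich libraries 7 of the 30 were lower, where 3.63% of all genes were, and without sham sample 1 11 were, where 6.09% were. Without orchiectomised sample 22 the count was 5, where 1.97% of all genes were lower. The list itself was enriched in the chow pull-down, with a median of 2.68. Astrocyte markers, enriched there as well, had a negative log2 fold change in 17 of 22 cases, with 3 lower at an unadjusted p under 0.05 and 7 without sham sample 1, and all 13 endothelial markers had a positive one. The part of these shifts in the lower fatty acid genes was not tested.

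Cyp4f15, a member of that list and a cytochrome P450 of the CYP4F family (chr17:32685627-32703352, plus strand), had 24.6, 31.3 and 34.5 CPM in orchiectomised pull-downs and 37.2, 47.4 and 60.6 CPM in sham pull-downs. Its groups did not overlap (−0.64 ± 0.13, edgeR adjusted p = 0.103). Phyhd1, a member of the phytanoyl-CoA dioxygenase family, had 22.6, 42.7 and 54.1 CPM in orchiectomised pull-downs, against 32.9, 73.1 and 88.6 CPM in sham pull-downs. Every sham library but sample 1 held at least 67.0 CPM, above all 7 orchiectomised libraries. Its change was −0.81 ± 0.19 (edgeR adjusted p = 0.504) with all libraries and −0.77 (edgeR adjusted p = 0.0102) without the Gm42418-rich ones; without orchiectomised sample 22 it was −0.75 (edgeR adjusted p = 0.809). Also lower at an unadjusted p under 0.05 in the list were Acaa2, a thiolase (−0.26 ± 0.08), and Acadvl, which opens the oxidation of very long chains (−0.28 ± 0.10). Cpt1a, which admits fatty acids to mitochondria (−0.07 ± 0.06), and Ppara, a lipid-sensing receptor (−0.10 ± 0.09), did not pass.

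The lowest log2 fold change among the 12 higher and 12 lower genes was that of Sult1a1, a sulfotransferase of phenolic compounds (chr7:126672865-126676432, minus strand). Orchiectomised pull-downs had 3.72, 11.1 and 17.8 CPM at the lowest, median and highest, against 9.53, 27.1 and 41.6 CPM in sham pull-downs. Sham sample 1 at 9.53 CPM was the 1 sham library inside the orchiectomised range, and the other 5 held at least 22.7 CPM. The log2 fold change was −1.34 ± 0.28 (edgeR adjusted p = 0.246), −1.33 without the Gm42418-rich libraries (edgeR adjusted p = 0.0155) and −1.51 without sham sample 1 (edgeR adjusted p = 0.0143). Without orchiectomised sample 22 it was not called (−1.32, edgeR adjusted p = 0.491). In the supernatants Sult1a1 averaged 5.11 CPM in orchiectomised and 7.04 CPM in sham mice (−0.46 ± 0.26).

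Promoter sequence was read for the named genes because orchiectomy withdraws a steroid, and steroid receptors bind DNA. RefSeq promoters on GRCm38.p6, from 250 bases before to 50 after the start, matched 8 of the 12 higher and 7 of the 12 lower genes. The promoters of the genes with the highest and lowest log2 fold change of these are shown 5′ to 3′ on the gene's strand, Tac2 at chr10:127724228-127724527 (plus) and Sult1a1 at chr7:126676369-126676668 (minus). Capitals mark the half-site AGAACA, or TGTTCT on the other strand, which the glucocorticoid receptor and its close relatives share.
Tac2: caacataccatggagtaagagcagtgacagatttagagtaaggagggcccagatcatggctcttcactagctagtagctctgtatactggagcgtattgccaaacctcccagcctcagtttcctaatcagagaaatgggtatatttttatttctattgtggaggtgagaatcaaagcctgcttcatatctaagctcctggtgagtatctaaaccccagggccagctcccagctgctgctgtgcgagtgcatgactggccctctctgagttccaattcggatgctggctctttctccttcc
Sult1a1: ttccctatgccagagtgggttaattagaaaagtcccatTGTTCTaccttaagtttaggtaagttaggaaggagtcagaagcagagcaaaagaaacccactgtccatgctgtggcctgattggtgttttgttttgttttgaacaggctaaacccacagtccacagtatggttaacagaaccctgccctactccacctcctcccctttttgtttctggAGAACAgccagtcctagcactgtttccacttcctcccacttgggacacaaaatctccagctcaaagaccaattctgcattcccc
The Sult1a1 window held 2 half-sites, at bases 39 to 44 and 217 to 222, and the Tac2 window held 0. Half-sites were found in 2 of the 7 lower genes matched, Sult1a1 and Gpr179, and in 1 of the 8 higher genes, Nrf1. Among all 27025 genes with a promoter in that set 21.3% hold the half-site, so the share says nothing particular of these genes. The full palindromic glucocorticoid receptor element was in 3 of all 32851 promoters and the palindromic oestrogen receptor element in 23, on either strand, and both were in 0 of these genes.

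The other lower genes came from several pathways. Hr, a corepressor of nuclear receptors, had 12.0, 19.1 and 23.78 CPM in orchiectomised pull-downs, against 23.81, 27.9 and 37.6 CPM in sham pull-downs. Its groups did not overlap but nearly touched, at orchiectomised sample 22 and sham sample 16 (−0.62 ± 0.14, edgeR adjusted p = 0.362). Kcnip2, a partner of Kv4 potassium channels, did not overlap either, with 6.07 to 12.9 CPM in orchiectomised and 14.0 to 19.3 CPM in sham pull-downs (−0.64 ± 0.15). The same held for Dhdh, a dihydrodiol dehydrogenase, with 13.3 to 19.7 and 21.5 to 26.8 CPM in orchiectomised and sham pull-downs (−0.45 ± 0.12). Scrg1 (−0.44 ± 0.11), Fah, the last enzyme of tyrosine breakdown (−0.41 ± 0.11), and Gpr179, an orphan receptor (−0.73 ± 0.20), overlapped between the groups.

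Aldoc, the brain aldolase and an abundant astrocyte message, was lower by a small margin. It held 5059, 5879 and 6256 CPM in orchiectomised pull-downs and 5849, 7393 and 7819 CPM in sham pull-downs. Again sham sample 1 was the lowest of its group, and the other 5 sham libraries lay above every orchiectomised library. The log2 fold change was −0.31 ± 0.08 (edgeR adjusted p = 0.722), with an adjusted p of 0.0163 from DESeq2.

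Among the higher genes other than Tac2 and Esr1, Wee1, a kinase that holds back entry into mitosis and is under clock control, had 5.82, 7.69 and 10.4 CPM in orchiectomised pull-downs, against 2.87, 4.02 and 6.96 CPM in sham pull-downs. The groups overlapped at 1 sham library, sample 18 (0.90 ± 0.20, edgeR adjusted p = 0.246). In the supernatants Wee1 averaged 13.3 CPM in orchiectomised and 14.4 CPM in sham mice. Nrf1, a regulator of nuclear genes for mitochondrial proteins, had 11.8 to 16.6 CPM in orchiectomised and 8.71 to 13.1 CPM in sham pull-downs. Sham sample 1 was the 1 library of its group above 10.6 CPM (0.53 ± 0.12, edgeR adjusted p = 0.292, and 0.61 with an adjusted p of 0.0466 without that library). With orchiectomised sample 22 left out it stood at 0.51 (edgeR adjusted p = 0.624).

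Xbp1, a transcription factor of the unfolded protein response, ranged from 26.0 to 53.2 CPM in orchiectomised and from 19.5 to 33.0 CPM in sham pull-downs, where all but sample 1 were at or below 25.2 CPM. Its log2 fold change was 0.62 ± 0.15 (edgeR adjusted p = 0.559). Tia1, an RNA-binding protein of stress granules, had the same form: 17.3 to 32.2 CPM in orchiectomised and 11.9 to 18.1 CPM in sham pull-downs, with sham sample 1 on top (0.63 ± 0.17). Nr3c2, the mineralocorticoid receptor gene, ranged from 18.1 to 34.7 CPM and from 13.6 to 22.8 CPM in orchiectomised and sham pull-downs (0.55 ± 0.15, edgeR adjusted p = 0.722). Foxj1, the regulator of motile cilia (0.46 ± 0.12), Kctd12, a GABA-B receptor subunit (0.31 ± 0.08), Creb3l2 (0.37 ± 0.10), Dbndd2 (0.41 ± 0.11) and S100a10 (0.56 ± 0.16) completed the 12. S100a10 was 0.39 without the Gm42418-rich libraries.

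**Figure D3:**
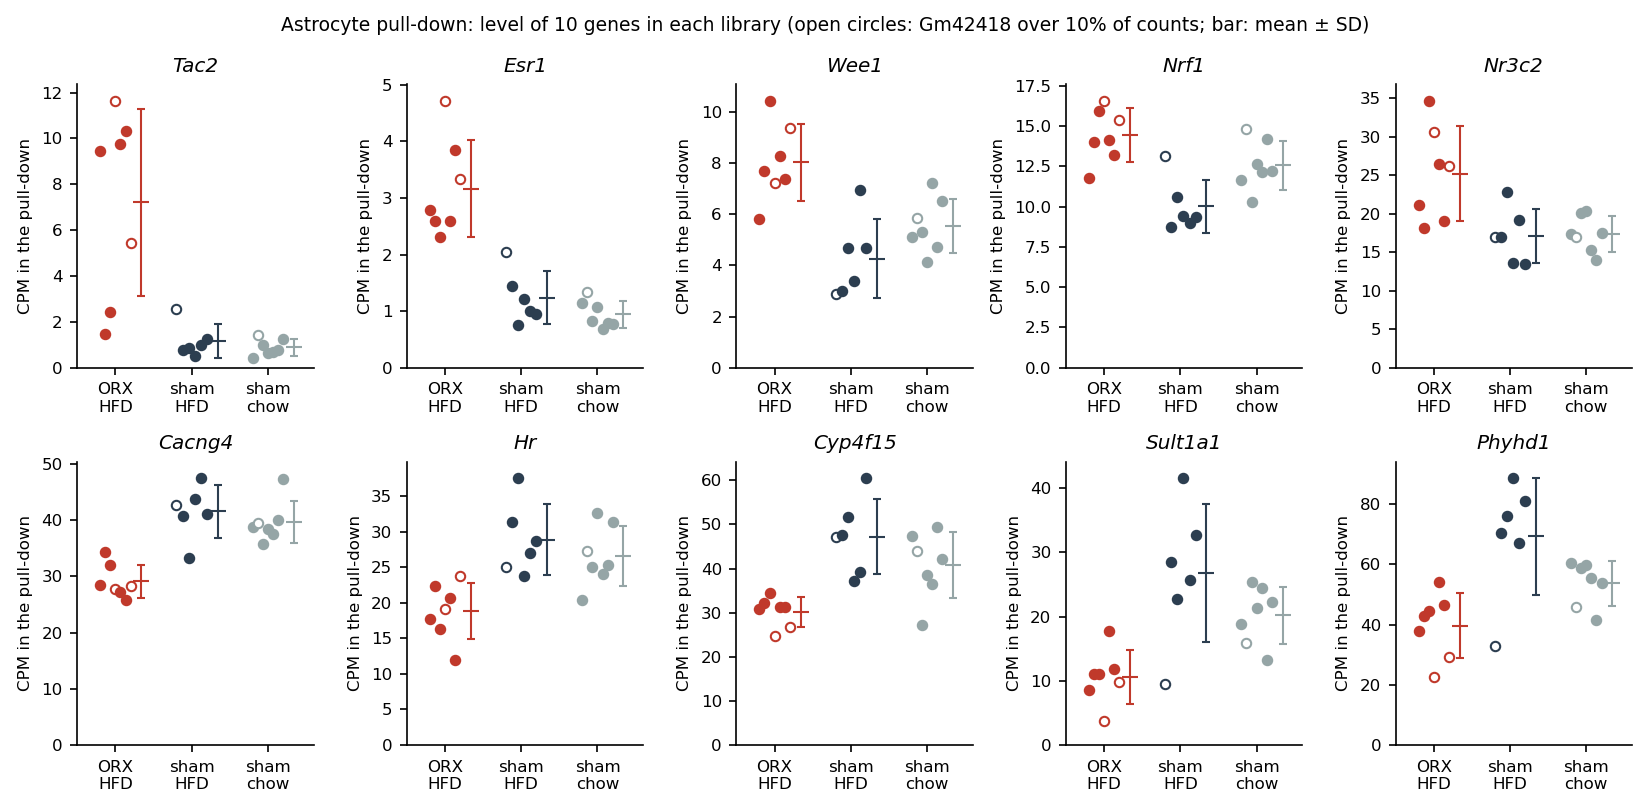
CPM of 10 genes in each pull-down of orchiectomised and sham mice on HFD and of sham mice on chow; each point is a library, open circles are Gm42418-rich, and bars give mean ± SD. For Tac2 5 of 7 orchiectomised libraries lie above all sham libraries on HFD, and for Esr1, Hr and Cyp4f15 the groups do not overlap, though those of Hr nearly touch. For Sult1a1 and Phyhd1 the open circle of sham sample 1 is the 1 sham library on HFD within the orchiectomised range.

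The genes of smallest p were set against their effect in the supernatants of the same samples. Fitted apart, the supernatants gave 0 calls of 14628 genes with edgeR (0%), with 439 at an unadjusted p under 0.05. Nearest to a call in the interaction, besides Tac2, were Wee1 (0.99 ± 0.21, edgeR adjusted p = 0.249), Esr1 and Exo5, an exonuclease gene (0.79 ± 0.21, edgeR adjusted p = 0.881), on the higher side. On the lower side they were Cacng4 (−0.49 ± 0.13), Lama2, a laminin chain (−0.78 ± 0.20), Dao, the D-amino acid oxidase (−3.09 ± 0.78), and Pcdhgb1. Dao was close to 0 in the supernatants, at 0.335 CPM in orchiectomised and 0.0477 CPM in sham mice. Pcdhgb1 was at 0 in all 6 sham supernatants, so its fitted value is no size, and it shares exons with the rest of the gamma protocadherin cluster, which makes its count uncertain.

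**Figure D4:**
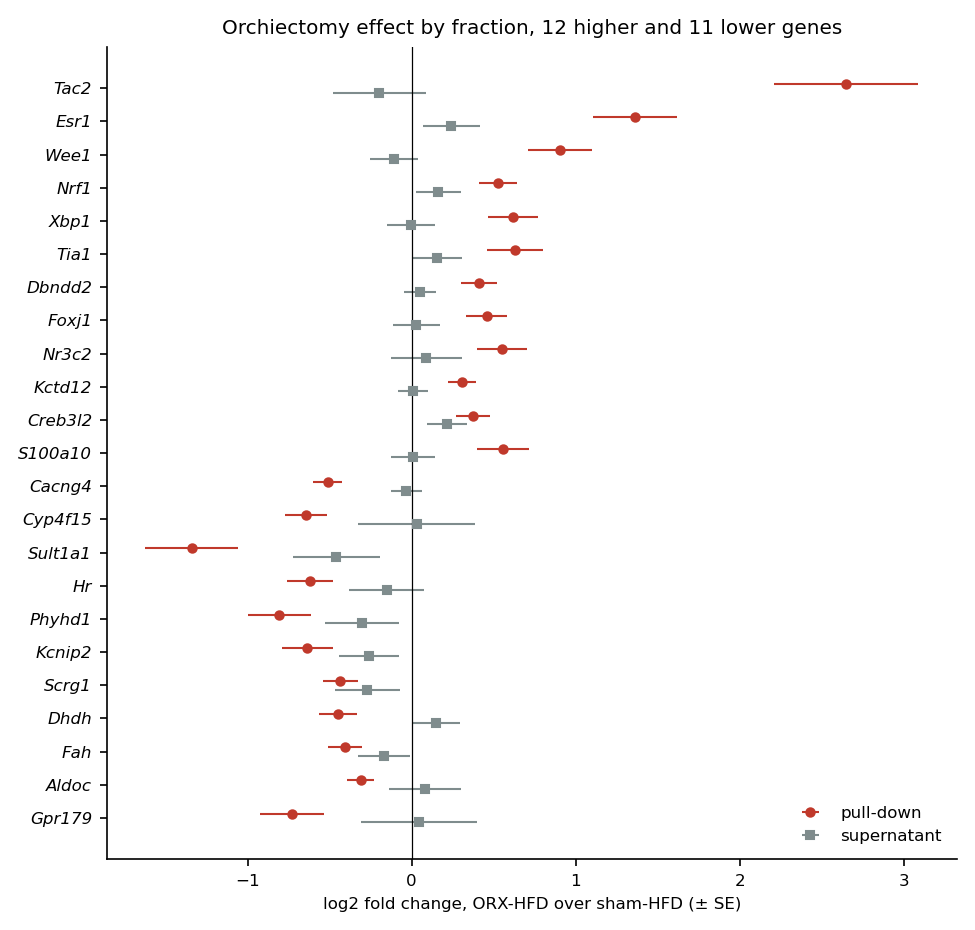
Log2 fold change of orchiectomised over sham mice (± SE) for the 12 higher and 11 of the 12 lower genes in the pull-down (circles) and in the supernatant (squares). Tac2 stands at 2.65 in the pull-down and at −0.20 in the supernatant, and Cacng4 at −0.51 and −0.03.

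Genes of neurons that carry steroid feedback lay mostly higher in orchiectomised pull-downs. Of 10 tested, 5 were higher and 1 was lower at an unadjusted p under 0.05, 9 had a positive log2 fold change, against 52.4% of all genes tested, and the median was 0.65. Of all genes tested 4.01% were higher and 2.52% lower at that p. The count was the same without the Gm42418-rich libraries, with a median of 0.46, where 4.51% of all genes were higher and 3.63% lower. With sham sample 1 left out 6 were higher and 1 lower, where 8.71% and 6.09% of all genes were, and with orchiectomised sample 22 left out 5 were higher and 0 lower, where 2.65% and 1.97% were. Besides Tac2 and Esr1 the higher genes were Prlr, the prolactin receptor (0.76 ± 0.27), Pdyn, the dynorphin precursor (0.64 ± 0.23), and Tacr3, the receptor for neurokinin B (1.05 ± 0.40). Prlr had 5.58 to 14.3 CPM in orchiectomised and 3.16 to 9.94 CPM in sham pull-downs, where all but sample 1 were at or below 4.24 CPM.

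Pgr, the progesterone receptor gene, had 2.25 to 10.5 CPM and 2.44 to 5.72 CPM in orchiectomised and sham pull-downs (0.14 ± 0.34), and its sign turned without orchiectomised sample 22 (−0.22). Of the general neuron markers 0 of 20 passed an unadjusted p of 0.05, with a median of 0.11. Without sham sample 1 3 were higher, where 8.71% of all genes were, and the median was 0.35. Without orchiectomised sample 22 0 passed, and the median was −0.05 with 13 of 20 negative. Neuropeptides of other hypothalamic neurons had 0 of 18 and a median of 0.16. For these, without sham sample 1 2 were higher with a median of 0.52. Without orchiectomised sample 22 0 passed, and their median was −0.10 with 13 of 18 negative. Of the arcuate feeding peptides, Agrp (−0.75 ± 0.71), Npy (0.19 ± 0.23), Pomc (0.44 ± 0.38) and Cartpt (0.69 ± 0.51) did not pass. That count moved with single libraries: without sham sample 1 2 of the 4 were higher, with a median of 0.60 and Pomc at 0.89 (edgeR adjusted p = 0.258), and without orchiectomised sample 22 0 of the 3 still tested were, with Pomc at 0.09. The part of neuronal carry-over in the steroid-feedback genes was not tested.

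Receptors and enzymes of steroids lay on both sides. Of 16 tested, 4 were higher and 2 lower at an unadjusted p under 0.05, where 4.01% and 2.52% of all genes tested were, with a median of 0.06. Both corticoid receptors were among the higher ones, Nr3c2 as above and Nr3c1, the glucocorticoid receptor (0.20 ± 0.08), with Hsd11b1, which regenerates active glucocorticoid (0.44 ± 0.18), and Tspo, a mitochondrial cholesterol-binding protein (0.39 ± 0.18). Sult1a1 and Hsd17b7, an enzyme of both steroid and cholesterol synthesis (−0.32 ± 0.12), were the lower ones. Leaving out the Gm42418-rich libraries gave 2 higher and 3 lower, where 4.51% and 3.63% of all genes were. Leaving out sham sample 1 gave 4 and 3, where 8.71% and 6.09% were, and leaving out orchiectomised sample 22 gave 3 and 2, where 2.65% and 1.97% were.

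Genes known to respond to androgen, mostly from prostate, lay on both sides as well: 3 of 17 were higher, 1 was lower, and the median was −0.08, where 4.01% and 2.52% of all genes tested were. The higher ones were Sgk1, a kinase also induced by corticoids (0.58 ± 0.24), Abcc4, an efflux transporter (0.45 ± 0.19), and Ndrg1 (0.95 ± 0.42), and the lower one was Rhou, a small GTPase (−0.36 ± 0.15). Ndrg1 had 98.6 CPM in orchiectomised sample 22 and 49.5 CPM in sham sample 1, against a median of 23.2 CPM in orchiectomised and 17.8 CPM in sham pull-downs. Sgk1 had 14.5 CPM in orchiectomised sample 22 and 9.23 CPM in sample 6, with 4.66 to 6.93 CPM in the other 5 and 3.07 to 6.77 CPM in sham pull-downs. Abcc4 had 22.8 and 20.7 CPM in the same 2 libraries, with 10.4 to 14.7 CPM in the other 5 and 8.22 to 14.0 CPM in sham pull-downs. With sample 22 left out Sgk1 stood at 0.33, Abcc4 at 0.31 and Ndrg1 at 0.63, and 0 of the 17 genes passed in either direction. Glucocorticoid-induced genes lay on both sides, 2 higher and 3 lower of 17, with Sult1a1, Plin4, a lipid droplet coat protein (−0.78 ± 0.27), and Mt1, a metallothionein (−0.35 ± 0.13), on the lower side, and Sgk1 and Pdk4, a kinase that shuts off pyruvate oxidation (0.49 ± 0.20), on the higher side. The background was 4.01% higher and 2.52% lower. Without sham sample 1 7 of the 17 were lower, where 6.09% of all genes were. Without orchiectomised sample 22 1 was higher and 3 were lower, where 2.65% and 1.97% of all genes were. Plin4 was also lower in the supernatants of orchiectomised mice, at 1.12 CPM against 3.43 CPM in sham mice (−1.60 ± 0.34), but the deposited second table lists it at 0.

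Endothelial markers lay higher, and so was the marker sum in part of the orchiectomised libraries. All 13 tested had a positive log2 fold change, the median was 0.78, and 3 passed an unadjusted p of 0.05: Emcn (1.36 ± 0.46), Ly6c1 (1.27 ± 0.49) and Vwf, the von Willebrand factor (1.37 ± 0.55). At that p 4.01% of all genes tested were higher. The endothelial markers summed to 496 to 2166 CPM in orchiectomised and 371 to 1270 CPM in sham pull-downs. Orchiectomised samples 6, 11 and 22 and sham sample 1 made up the high end. Without the Gm42418-rich libraries 10 of 13 were higher, with a median of 0.88, where 4.51% of all genes tested were higher; without sham sample 1 it was 12 of 13, with a median of 1.35, where 8.71% were. With orchiectomised sample 22 left out 1 of 13 was higher, with a median of 0.56 and Vwf at 0.85, where 2.65% of all genes were.

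Red blood cell markers, 5 globin and haem genes, had a median of 1.09 with 0 at an unadjusted p under 0.05. They summed to 6534 CPM in orchiectomised sample 6, and to 231 to 1950 CPM in the other orchiectomised and 349 to 1778 CPM in the sham pull-downs. Of the remaining marker lists, mural cells (0 of 9 higher, median 0.09), microglia and macrophages (0 of 15, 0.15), oligodendrocytes (0 of 14, 0.25, with Cnp lower at −0.29 ± 0.13, and 6 of 14 higher without sham sample 1) and fibroblasts (1 of 8, 0.15, Col3a1 at 0.54 ± 0.23) had 1 or 0 members past that p. Whether blood and vessel messages in the pull-down weighed on other results was not tested.

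Immediate early genes, which cells switch on within a short time of stimulation, lay mostly higher. Of 17 tested, 4 were higher and 0 lower at an unadjusted p under 0.05, with a median of 0.31, where 4.01% of all genes tested were higher. Without sham sample 1 6 were higher, where 8.71% of all genes were, and without orchiectomised sample 22 3 were, where 2.65% were. Nr4a1, an orphan nuclear receptor (0.89 ± 0.25), and Egr1 (0.67 ± 0.25) had 2.64 to 6.06 and 3.52 to 8.87 CPM in orchiectomised pull-downs, against 1.58 to 3.16 and 2.20 to 5.93 CPM in sham pull-downs. The deposited second table lists Nr4a1 at 0. Klf2, a factor also made by endothelium (1.33 ± 0.48), was at 76.0 to 115 CPM in orchiectomised samples 6, 11 and 22, the libraries with the highest endothelial sums, and at 18.2 to 27.5 CPM in the other 4. Sham pull-downs held 50.2 CPM of it in sample 1 and 9.82 to 20.2 CPM elsewhere. Fosl2 was the other one (0.81 ± 0.35).

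Genes of astrocyte reactivity were higher in 7 of 24 cases and lower in 1 at an unadjusted p under 0.05, with a median of 0.17, where 4.01% and 2.52% of all genes tested were. Leaving out sham sample 1 gave 10 higher and 2 lower, where 8.71% and 6.09% of all genes were. Leaving out orchiectomised sample 22 gave 4 and 0, with a median of 0.04, where 2.65% and 1.97% of all genes were. S100a10, Srgn, a proteoglycan core (0.68 ± 0.20), Vim, the intermediate filament vimentin (0.42 ± 0.14), Emp1 (0.71 ± 0.24), Cd44, a hyaluronan receptor (0.32 ± 0.14), Tm4sf1 (0.91 ± 0.39) and Osmr, the oncostatin M receptor (0.42 ± 0.19), were higher, and Amigo2 was lower (−0.28 ± 0.14). Vim had 104 to 168 CPM in orchiectomised and 72.8 to 112 CPM in sham pull-downs. Gfap, the hallmark of reactive astrocytes, held 416, 534 and 728 CPM in orchiectomised and 426, 494 and 592 CPM in sham pull-downs (0.14 ± 0.13, edgeR adjusted p = 0.810). Several of these genes are also made by vessels, and the endothelial sum above lay higher with them; its part in these values was not tested.

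Astrocyte markers themselves lay mostly a little lower: 17 of 22 had a negative and 5 a positive log2 fold change, with a median of −0.06. Aqp4, the water channel of the endfeet (0.32 ± 0.11), and Kcnj10, the potassium channel beside it (0.25 ± 0.11), were higher at an unadjusted p under 0.05, while Aldoc, Glul, the glutamine synthetase (−0.21 ± 0.10), and Gpr37l1 (−0.20 ± 0.09) were lower, of 22. At that p 4.01% of all genes tested were higher and 2.52% lower. With the Gm42418-rich libraries left out 5 were lower, where 3.63% of all genes were, and without sham sample 1 7 were, where 6.09% were. Without orchiectomised sample 22 1 was lower and 3 were higher, where 1.97% and 2.65% of all genes were. Aqp4 had 748, 996 and 1033 CPM in orchiectomised and 660, 753 and 828 CPM in sham pull-downs. Its lowest orchiectomised library was sample 22, and the deposited second table gives other values for Aqp4. Aldh1l1, whose regulatory sequence drives the tag, held 119 to 208 CPM in orchiectomised and 134 to 171 CPM in sham pull-downs (−0.06 ± 0.11, edgeR adjusted p = 0.908).

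In the list of astrocyte ion and water transport 2 of 17 were higher, Aqp4 and Kcnj10, and 2 were lower, among them Kcnk1, a potassium channel (−0.28 ± 0.12), with a median of −0.08 and 12 of 17 negative. Lower members numbered 4 without the Gm42418-rich libraries, where 3.63% of all genes were lower, and 6 without sham sample 1, where 6.09% were. Without orchiectomised sample 22 2 were lower, where 1.97% of all genes were. With all libraries 4.01% of all genes tested were higher and 2.52% lower at an unadjusted p under 0.05. That is also the background for the next list. Transmitter uptake and metabolism had Slc7a11, the cystine-glutamate exchanger (0.33 ± 0.11), and Slc38a5, an amino acid carrier (0.99 ± 0.38), higher and Glul lower, of 17. Slc7a11 ranged from 220 to 344 CPM in orchiectomised and from 213 to 234 CPM in sham pull-downs.

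The unfolded protein response had 4 of 24 higher and 0 lower at an unadjusted p under 0.05, with a median of 0.12 and with Xbp1 in front. Of all genes tested 4.01% were higher and 2.52% lower at that p, which is also the background for the next list. The others were Manf, a secreted stress protein (0.36 ± 0.13), Edem1, which sends misfolded proteins to degradation (0.41 ± 0.19), and Dnajb9, a chaperone of the endoplasmic reticulum (0.22 ± 0.10). Hspa5, the main chaperone there (0.06 ± 0.08), and Ddit3 (0.08 ± 0.10) did not pass. Without orchiectomised sample 22 2 of the 24 were higher, where 2.65% of all genes were. Class I antigen presentation had 4 of 14 higher and 0 lower, with a median of 0.25: Psmb9, an immunoproteasome subunit (0.96 ± 0.34), B2m (0.26 ± 0.10), H2-T23 (0.50 ± 0.23) and H2-D1 (0.38 ± 0.18). Counts of H2 genes are uncertain because near-identical copies share reads. Without the Gm42418-rich libraries 2 of the 14 were higher, where 4.51% of all genes were, and B2m stood at 0.15. The highest library for B2m was orchiectomised sample 22. Without that library 1 of the 14 was higher, where 2.65% of all genes were, B2m stood at 0.17 and Psmb9 at 0.63.

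Clock genes other than Wee1 were mixed: Nr1d1, a repressor of the clock (−0.32 ± 0.11), and Ciart (−0.70 ± 0.27) were lower, of 19 with a median of −0.01. Per1 (−0.06), Per2 (0.07), Dbp (0.01) and Arntl (0.28) did not pass. At an unadjusted p under 0.05 4.01% of all genes tested were higher and 2.52% lower. The labels do not give the hour of collection.

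Cytosolic ribosomal proteins lay a little lower. Of 79 tested, 69 had a negative log2 fold change, against 47.6% of all genes tested, and the median was −0.14. But 3 were lower at an unadjusted p under 0.05, where 2.52% of all genes were, among them Rpl23 (−0.27 ± 0.13) and Rps20 (−0.23 ± 0.11). Without sham sample 1 the count was 29 of 79, where 6.09% of all genes tested were lower, and without the Gm42418-rich libraries it was 18, where 3.63% were. Without orchiectomised sample 22 1 was lower, where 1.97% of all genes were. Their counts are uncertain because processed pseudogenes share their sequence. Nuclear genes of oxidative phosphorylation were negative in 30 of 39 cases, with a median of −0.09 and Sdha as the 1 member lower (−0.13 ± 0.06). Without sham sample 1 13 were lower, where 6.09% of all genes were, and without the Gm42418-rich libraries 4 were, where 3.63% were. Without orchiectomised sample 22 0 of the 39 were lower, and their median was −0.06.

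Other lists had few members at an unadjusted p under 0.05. Of all genes tested 4.01% were higher and 2.52% lower at that p, and 8.71% and 6.09% without sham sample 1. Without orchiectomised sample 22 these shares were 2.65% and 1.97%, and without the Gm42418-rich libraries 4.51% and 3.63%. Lipid transport and droplets had 2 of 27 lower (median −0.14), Plin4 and Dbi, an acyl-CoA binding protein (−0.27 ± 0.10), and 7 without sham sample 1. Antioxidant genes had Gstm1 (−0.34 ± 0.10) and Mt1 lower and Gclc, which limits glutathione synthesis, higher (0.23 ± 0.09), of 23. Cholesterol synthesis had Idi1 higher (0.57 ± 0.19) and Hsd17b7 lower, of 24 with a median of 0.01. Fatty acid synthesis had 0 of 18, glycolysis had Aldoc alone of 24, and leptin, insulin and growth hormone signalling had Jak2 (0.18 ± 0.08) of 23. Without sham sample 1 fatty acid synthesis had 2 higher and 1 lower, glycolysis 2 higher and 3 lower, antioxidant genes 1 higher and 4 lower, and leptin, insulin and growth hormone signalling 2 higher and 1 lower. In the interferon list Parp14 (0.53 ± 0.24), Gbp3 (0.54 ± 0.26) and Rsad2 (0.88 ± 0.42) were higher of 21. Rsad2 stood highest in orchiectomised sample 6, with 45.9 CPM against 5.18 to 10.4 CPM in the other 6. Without orchiectomised sample 22 0 of the 21 were higher, with Parp14 at 0.36, Gbp3 at 0.44 and Rsad2 at 0.93. Without the Gm42418-rich libraries 2 were higher, and without sham sample 1 3 were.

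**Figure D5:**
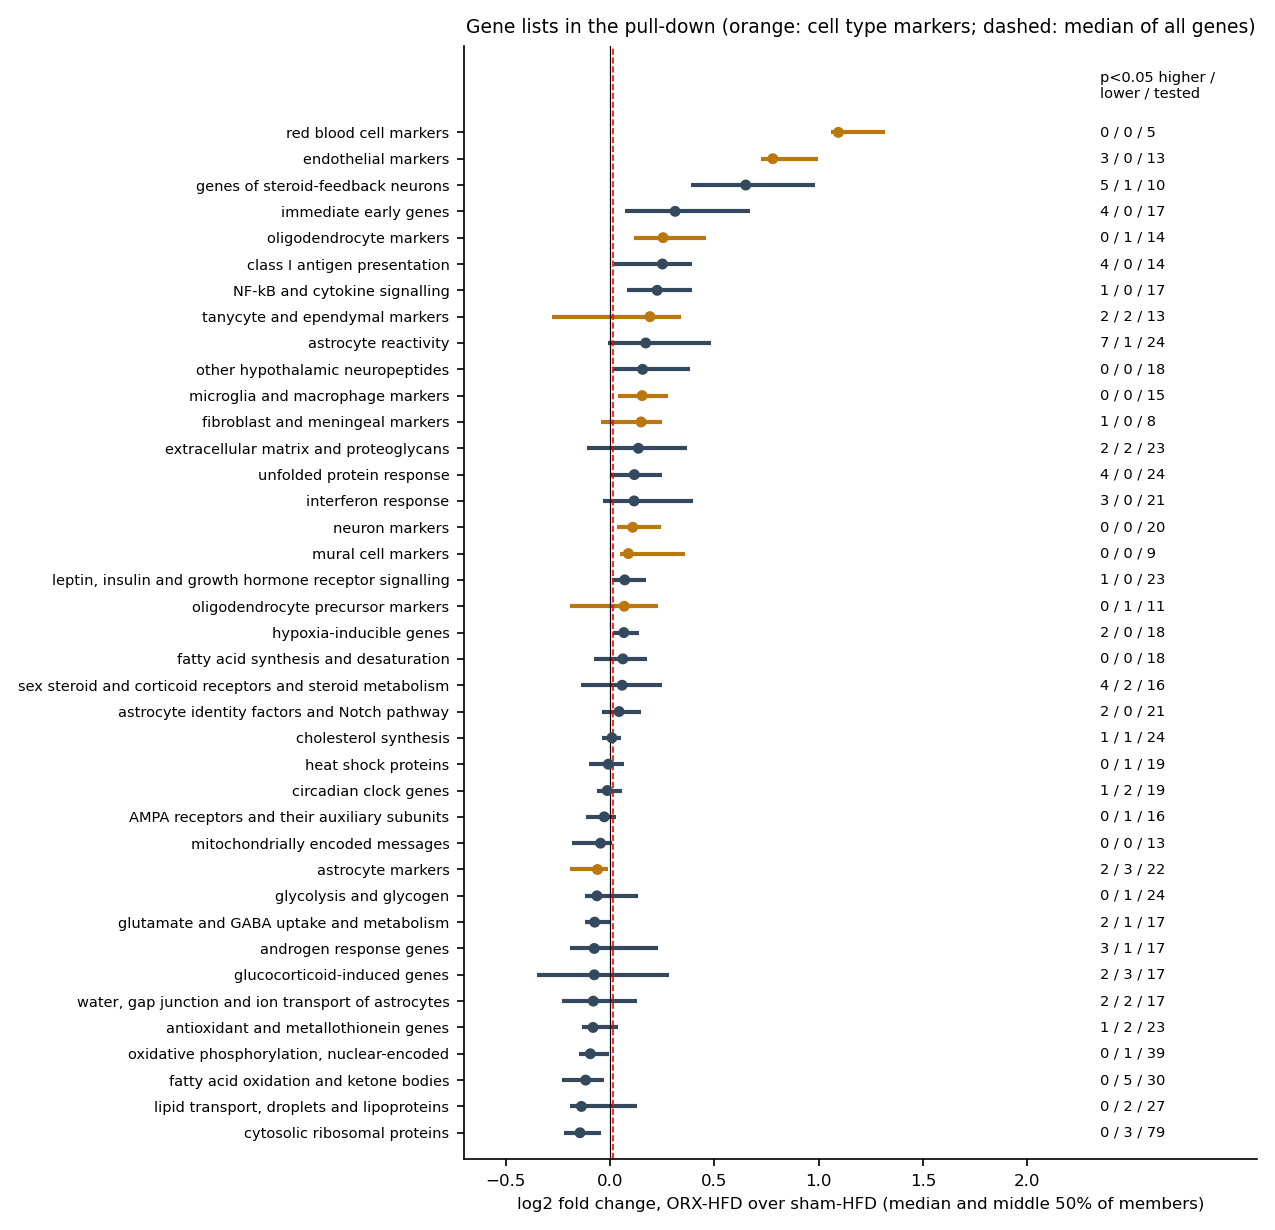
Median log2 fold change of orchiectomised over sham pull-downs (points) and the middle 50% of members (lines) for the gene lists with at least 5 tested genes, with the number of members higher and lower at an unadjusted p under 0.05. Red blood cell and endothelial markers and the genes of steroid-feedback neurons have the highest medians, 1.09, 0.78 and 0.65, and cytosolic ribosomal proteins the lowest, −0.14.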

How the data were processed

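Ribosome-bound and leftover RNA of microdissected hypothalami was sequenced with a kit that reads the 3′ end of each polyadenylated message, per the labels' protocols. Trim Galore 0.6.4, Salmon 1.9.0 and the build GRCm38 are named in the submitters' processing notes; neither annotation nor strand setting is stated there or in the labels. The authors deposited a table of estimated counts per gene symbol for 40 libraries, in which 12.7% of the non-zero counts are not whole. A second deposited table holds a signal whose columns sum to 847343 to 1025286; of 26783 shared symbols, 25089 equalled the counts in every library within 0.01 after 1 factor per library, and 1694 did not.

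Counts were rounded and fitted with edgeR 4.0.16 in R 4.3.3 (quasi-likelihood test, TMM scaling, filterByExpr with a minimum count of 10, robust). The fit took all 20 pull-downs with 3 group means, and p-values were adjusted by Benjamini-Hochberg over all genes tested. The interaction took all 40 libraries with 6 means. Alternatives used DESeq2 1.42.0, limma 3.58.1, other scalings and filters, and fewer libraries. The second table was tested with limma on log2(signal + 1). Library measures were compared with scipy 1.17.1. The edgeR steps were tested on simulated data.

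The text names the 12 genes of smallest p in each direction with a regular symbol and a mean of at least 2 CPM, genes that at least 2 alternatives called, up to 3 members of a list at an unadjusted p under 0.05, the 4 leading interaction genes each way, and Tac2, Esr1, Pgr, Aldh1l1, Gfap, Agrp, Npy, Pomc and Gm42418. Some genes that this rule takes are not reported here. Other list members are named to account for a list's count and were chosen after their values were seen. The groups, the lists and the named genes were chosen with earlier results of these data known. The labels do not say whether a sample number is 1 mouse, so the spread behind each p-value may be technical. Positions come from the GENCODE M21 annotation, in which 94.4% of the symbols were found. No pull-down pair of 1 group agreed within sampling noise (lowest chi-square per gene 4.35).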

Additional observations from a re-analysis of the deposited data

Results flagged for a closer look

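Single libraries that lay far from the rest of their group were found 23 times in 172 groups of values, where chance gives about 1 in 20, or 8.6. Sham sample 1 accounted for most. It was the highest sham pull-down for Tac2 (2.56 CPM, others 0.521 to 1.24), Prlr (9.94, others 3.16 to 4.24) and Pomc (73.9, others 18.1 to 28.6). The same library was highest for the vessel genes Emcn (12.1, others 2.71 to 5.46), Ly6c1 (99.7, others 30.2 to 49.3) and Vwf (22.9, others 4.95 to 8.54), and for Klf2 (50.2, others 9.82 to 20.2), Cxcl12 (82.3, others 31.3 to 47.7) and Ndrg1 (49.5, others 16.1 to 20.1). Its Gm42418 level was 191000 CPM, with 16000 to 45500 in the others. It was the lowest for Aldoc (5850, others 7200 to 7820), Mt1 (3220, others 4950 to 5930), Rarres2 (23.3, others 35.5 to 40.5) and Jak2 (22.3, others 26.3 to 28.6).

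Orchiectomised sample 22 was the highest of its group for S100a10 (48.3 CPM, others 22.2 to 33.4), Prlr (14.3, others 5.58 to 9.17), Psmb9 (26.1, others 5.73 to 12.7), B2m (577, others 362 to 415) and Pomc (96.4, others 21.3 to 52.4). Orchiectomised sample 6 was the highest for Cxcl12 (291, others 40.3 to 129) and Rsad2 (45.9, others 5.18 to 10.4), and sample 10 for Gclc (93.9, others 60.7 to 74.1). Sham sample 9 was the highest of its group for Exo5 (5.89, others 4.12 to 4.78).

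The effect of orchiectomy on Tac2 differed between pull-down and supernatant by 2.84 on the log2 scale, the 1 interaction that edgeR called. It was not called with the sample number as a block (edgeR adjusted p = 0.176) or without the samples whose pull-down was rich in Gm42418, where 0 genes were.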

How the results depend on the processing

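Counts of calls moved with the tool and the libraries. Of higher genes DESeq2 called 4, quality weights 35 (chosen after seeing the data) and the fit without the Gm42418-rich pull-downs 2; leaving out 1 library gave 0 to 3. Of lower genes the same settings called 7, 44 and 2, with 0 to 2 on leaving out 1 library. Leaving out orchiectomised sample 10 called Tac2, orchiectomised sample 6 Tac2 and Cacng4, and sham sample 13 Cacng4. The other settings called 0, including the fit of the 13 HFD pull-downs alone (lowest edgeR adjusted p = 0.321). Genes at an unadjusted p under 0.05 numbered 542 without sham sample 16, 584 without sham sample 20 and 2100 without sham sample 1, against 918. The interaction called 0 with the replicate block and 0 without the samples rich in Gm42418. Orchiectomised and sham pull-downs share no sample number, so no paired fit of the main comparison was possible. Between the fractions, deviations of same-numbered libraries correlated at −0.145 to 0.242 over 20 pairs, with 6 above 0.1 and 6 best with their own number.

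Pgr changed sign with limma voom (−0.0397), quality weights (−0.20), without the Gm42418-rich pull-downs (−0.45), and in the second table (−0.00558), and ranged from −0.22 to 0.28 on leaving out 1 library. Pcdhgb1 ranged from −0.0381 to 0.33 on leaving out 1 library. The cause was not tested. List counts without sham sample 1, without orchiectomised sample 22 and without the Gm42418-rich pull-downs were also chosen after seeing the data.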

Other observations

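Several groups outside the pathways above had members at an unadjusted p under 0.05 in orchiectomised against sham pull-downs. The background for each list below was 4.01% of all genes tested higher and 2.52% lower at that p. In extracellular matrix Thbs1, an adhesive glycoprotein (1.71 ± 0.58), and Adamts9, a protease (0.44 ± 0.15), were higher, and Sparc (−0.32 ± 0.10) and Timp4, a protease inhibitor (−0.26 ± 0.11), were lower, of 23. Thbs1 had 6.15, 4.82 and 3.94 CPM in orchiectomised samples 6, 11 and 22 and 0.370 to 0.901 CPM in the other 4, against 0.431 to 1.23 CPM in sham pull-downs. Its value was 0.57 with sample quality weights, and leaving out any 1 of these 3 libraries took it below the filter on low counts, so it was not tested there. Without sham sample 1 7 of the matrix genes were higher and 2 lower, where 8.71% and 6.09% of all genes were. Leaving out orchiectomised sample 22 gave 1 higher and 2 lower of 22, where 2.65% and 1.97% of all genes were. Leaving out the Gm42418-rich libraries gave 2 and 2 of 22, where 4.51% and 3.63% were. Among astrocyte identity and Notch genes Hopx (0.48 ± 0.18) and Id1 (0.45 ± 0.20) were higher, of 21. Markers of tanycytes and ependyma split, with Foxj1 and Vim higher and Rarres2 (−0.28 ± 0.13) and Cfap126 (−0.62 ± 0.30) lower, of 13. Cxcl12, a chemokine that vessels also make, was the 1 higher gene of 17 in cytokine signalling (1.22 ± 0.41, and 0.75 without orchiectomised sample 6), Bnip3l (0.29 ± 0.11) and Ndrg1 the 2 of 18 in hypoxia, and Bag3 the 1 lower of 19 heat shock genes (−0.25 ± 0.11).

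Beyond the genes named in the report, groups without overlap included Vwc2, a secreted regulator of bone morphogenetic proteins (0.86 ± 0.24), and Acvr1, a receptor of that family (0.42 ± 0.14), with orchiectomised libraries above sham libraries, and Fkbp1a, an immunophilin (−0.15 ± 0.06), with them below. These 3 were chosen after their values were seen, from the 20 genes of 14059 without overlap (0.142%). None was called, with an edgeR adjusted p of 0.722 for Vwc2 and 0.741 for Acvr1 and Fkbp1a.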
